A study of Mus musculus with 32 samples.

Results

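The genes described here are 34 genes of autophagy and the lysosome, measured in mouse liver: 23 that build the autophagosome or load it, 9 that make up or digest within the lysosome, and 2 transcription factors, Tfeb and Tfe3. They were chosen by symbol from a list of known functions, with earlier results of these data known, out of 35275 genes in the deposited table. All 34 passed the filter on low counts and were among the 14438 genes tested. Sequencing libraries were made from polyA RNA of the whole liver. The mice were males of strain c57bl6, which were 16 weeks old and had eaten their diet since 12 weeks of age. The groups cross genotype (fatp2-/-, written KO, and wild type, WT), diet (a ketogenic diet, KD, and its control diet, CD) and hours fasted (24 and 4). There were therefore 8 groups, each of 4 animals with a library of their own: KO KD 24 h, KO KD 4 h, KO CD 24 h, KO CD 4 h, WT KD 24 h, WT KD 4 h, WT CD 24 h and WT CD 4 h. Fatp2, encoded by Slc27a2, is a protein of hepatocytes that takes up long-chain fatty acids and activates very long-chain ones. The labels do not say how its allele was made. Whole liver mixes hepatocytes with other cells, so fewer cells of a type and less RNA per cell cannot be told apart in these data.

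Autophagy carries cytoplasm to the lysosome in a double membrane. A kinase complex built around Ulk1 or Ulk2 and Atg13 starts it, and the lipid kinase complex that holds Becn1 and Atg14 marks the growing membrane. Wipi1 and Wipi2 read that mark, while Atg9a and Atg2a or Atg2b bring lipid. Atg7, Atg3, Atg5, Atg12 and Atg16l1 then fix the Atg8 proteins (Map1lc3a, Map1lc3b, Gabarap, Gabarapl1, Gabarapl2) to the membrane after Atg4b has trimmed them. Cargo receptors such as Sqstm1 and Nbr1 bind them. In the lysosome, cathepsins (Ctsa, Ctsb, Ctsd, Ctsl) cut proteins, Hexa cuts gangliosides, and Lipa releases fatty acids and cholesterol from stored esters. Lamp1 and Lamp2 line its membrane, and Mcoln1 is its calcium channel. Tfeb and Tfe3 bind a short E-box element, called CLEAR, near the start of many of these genes. In liver, autophagy is known for supplying amino acids and fatty acids during a fast.

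Total counts ranged from 13406678 to 24700310 per library. Levels are given in CPM, the count scaled to library size after TMM normalisation, and on that scale a gene at the floor of 3 counts would lie at 0.112 to 0.23 CPM. Slc27a2 lay at 121 to 318 CPM in the 16 KO livers and at 905 to 2229 CPM in the 16 WT livers, without overlap. Acta1, an actin of skeletal muscle, exceeded 10 CPM in 4 livers: KO KD 4 h replicate 4, KO CD 24 h replicates 1 and 2, and WT CD 24 h replicate 1. On a scale from 0 (mean of WT on CD) to 1 (mean of WT on KD), built from 68 genes that KD changed alike in WT livers at both times, the library labelled KO KD 24 h replicate 4 lay at 0.254 and its group mates at 0.779 to 0.824. The opposite held for the library labelled KO CD 24 h replicate 4, at 0.765, its group mates lying at 0.14 to 0.33. Whether the pair was exchanged was not tested, and both libraries were kept under their labels. For several results that rest on these 6 libraries, the outcome without them is given as well. The hepatocyte markers Alb, Ttr, Apoa1, Apob, Serpina1c and Cps1 summed to at least 30661 CPM in every library.

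Per kilobase of gene length, the median level over all livers spanned from 307 CPM per kb for Ctsl to 3.37 CPM per kb for Tfe3. After Ctsl, the order ran Lamp1 (233 CPM per kb), Gabarapl1 (212), Lamp2 (197), Gabarap (154), Sqstm1 (143) and Ctsd (132). At the low end, Atg2b (3.71 CPM per kb), Tfeb (3.87) and Tfe3 had overlapping ranges over the livers. The lysosome genes thus held 4 of the 7 highest levels, and the kinases, lipid-transfer proteins and transcription factors lay lower. The group means of Lipa differed most between groups, with a ratio of 2.92 between its highest group (KO CD 4 h) and its lowest (WT KD 4 h). Ctsl followed with a ratio of 2.89 and Sqstm1 with 2.43, and Wipi2 (1.11) and Tfeb (1.16) varied least. Atg9a had a ratio of 2.81, but it overlaps the end of Ankzf1 on the other strand, whose counts amounted to 83.4% of its own. Without a stated strand setting the reads of the pair cannot be told apart, and the same holds for Ctsa with Pltp (30.7%), Map1lc3b with Zcchc14 (28.0%), Atg4b with Thap4 (27.2%) and Ctsb with Fdft1 (14.4%).

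**Figure D1:**
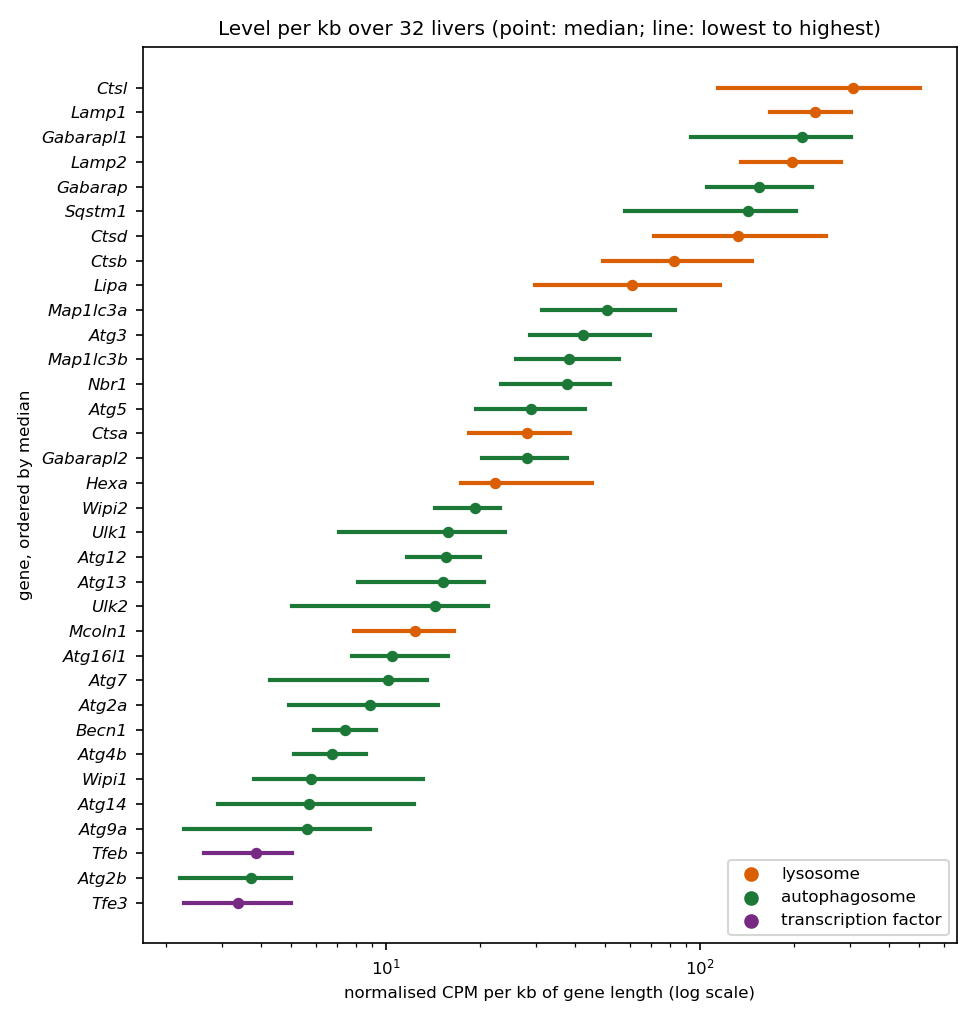
Normalised CPM per kb of gene length (log axis) of the 34 genes over the 32 livers, coloured by class, with the median as a point and the lowest to highest liver as a line. Ctsl stands highest at a median of 307 CPM per kb, and Tfe3 lowest at 3.37.

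The promoters of the lysosome genes are shown because 7 of the 9 were lower on KD in WT livers fasted 4 h, and because the CLEAR element is defined by its letters. RefSeq promoter windows (GRCm38.p6, 250 bases before to 50 after each start) were matched for 29 of the 34 genes. The windows were searched on both strands for the E-box core CACGTG, for the CLEAR core TCACGTGA, which holds an E-box core within it, and for the FoxO core GTAAACA. An E-box core lay in 5 of 8 lysosome genes (Ctsa, Ctsd, Ctsl, Lamp1 and Mcoln1) and in 4 of 19 autophagosome genes (Atg14, Atg3, Atg5 and Atg7). Over the 29 genes that is 31.03%, against 8.093% of the 27025 genes with a window. Some windows lie at a start within the gene. The Atg7 window does (114670846 to 114671145), as the gene starts at 114643097. So does the Ctsa window that holds its cores (164833523 to 164833822, gene start 164832873). The full CLEAR core lay in Ctsa, Ctsd, Mcoln1 and Atg3, which is 13.79% of the matched genes against 1.125% of all genes. CLEAR is already known from near the start of many of these genes. Its higher share, and that of the E-box core within it, is therefore no independent result. The FoxO core was found in 0 of the 29, against 4.052% of all genes. Neither Tfeb nor Tfe3 held an E-box core in its window. The 4 genes with the full core are printed with it in the centre, 5′ to 3′ on the strand of the gene, with motif letters in capitals:
Ctsa (chr2:164833749-164833778, plus strand): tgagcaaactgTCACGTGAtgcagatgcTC
Ctsd (chr7:142387908-142387937, minus strand): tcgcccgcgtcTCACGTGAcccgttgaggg
Mcoln1 (chr8:3500462-3500491, plus strand): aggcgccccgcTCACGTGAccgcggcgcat
Atg3 (chr16:45158746-45158775, plus strand): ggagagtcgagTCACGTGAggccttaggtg
The letters in capitals at the end of the Ctsa line open a second CLEAR core that lies just after it. A pair of whole windows shows the range among the lysosome genes, with E-box cores in capitals. Lamp1, for the membrane glycoprotein, had 4 E-box cores within the bases just before its start. Lipa, which changed most, had none:
Lamp1 (chr8:13158911-13159210, plus strand): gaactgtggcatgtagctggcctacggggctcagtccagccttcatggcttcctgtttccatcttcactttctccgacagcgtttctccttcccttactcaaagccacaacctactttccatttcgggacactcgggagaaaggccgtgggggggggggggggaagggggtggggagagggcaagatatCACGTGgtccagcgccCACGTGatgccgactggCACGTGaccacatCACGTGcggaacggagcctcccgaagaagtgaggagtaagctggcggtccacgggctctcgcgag
Lipa (chr19:34527425-34527724, minus strand): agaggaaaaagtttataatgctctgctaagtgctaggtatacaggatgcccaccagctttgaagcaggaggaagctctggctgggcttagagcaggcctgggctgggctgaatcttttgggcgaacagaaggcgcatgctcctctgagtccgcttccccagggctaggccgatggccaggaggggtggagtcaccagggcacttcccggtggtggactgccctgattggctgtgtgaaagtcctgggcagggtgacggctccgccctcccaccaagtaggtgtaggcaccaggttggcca
A match describes the letters of a window and does not show that a factor binds there.

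Over the 12 pairwise comparisons (4 each of genotype, diet and fasting), 23 of the 34 genes passed the test at least once and 11 passed in none. Of all genes tested, 50.9% passed at least once. A gene passed at a Benjamini-Hochberg adjusted p under 0.05 over all tested genes, by edgeR's quasi-likelihood test on the counts. Where groups of a gene that passed are said not to overlap, this describes the same livers that gave the call. It adds no evidence to the call, and the share of all genes without overlap was not computed. Of 55 calls, 25 held whichever single library was left out. Becn1, Atg2a, Atg9a, Atg12, Wipi1, Wipi2, Gabarap, Gabarapl1, Gabarapl2, Nbr1 and Tfeb were the genes with no call. Of the calls, 4 were between genotypes, 21 between diets and 30 between fasting times, in 136 tests of each kind. Over all genes the tests that passed were 2.67% between genotypes, 9.33% between diets and 14.4% between fasting times.

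**Figure D2:**
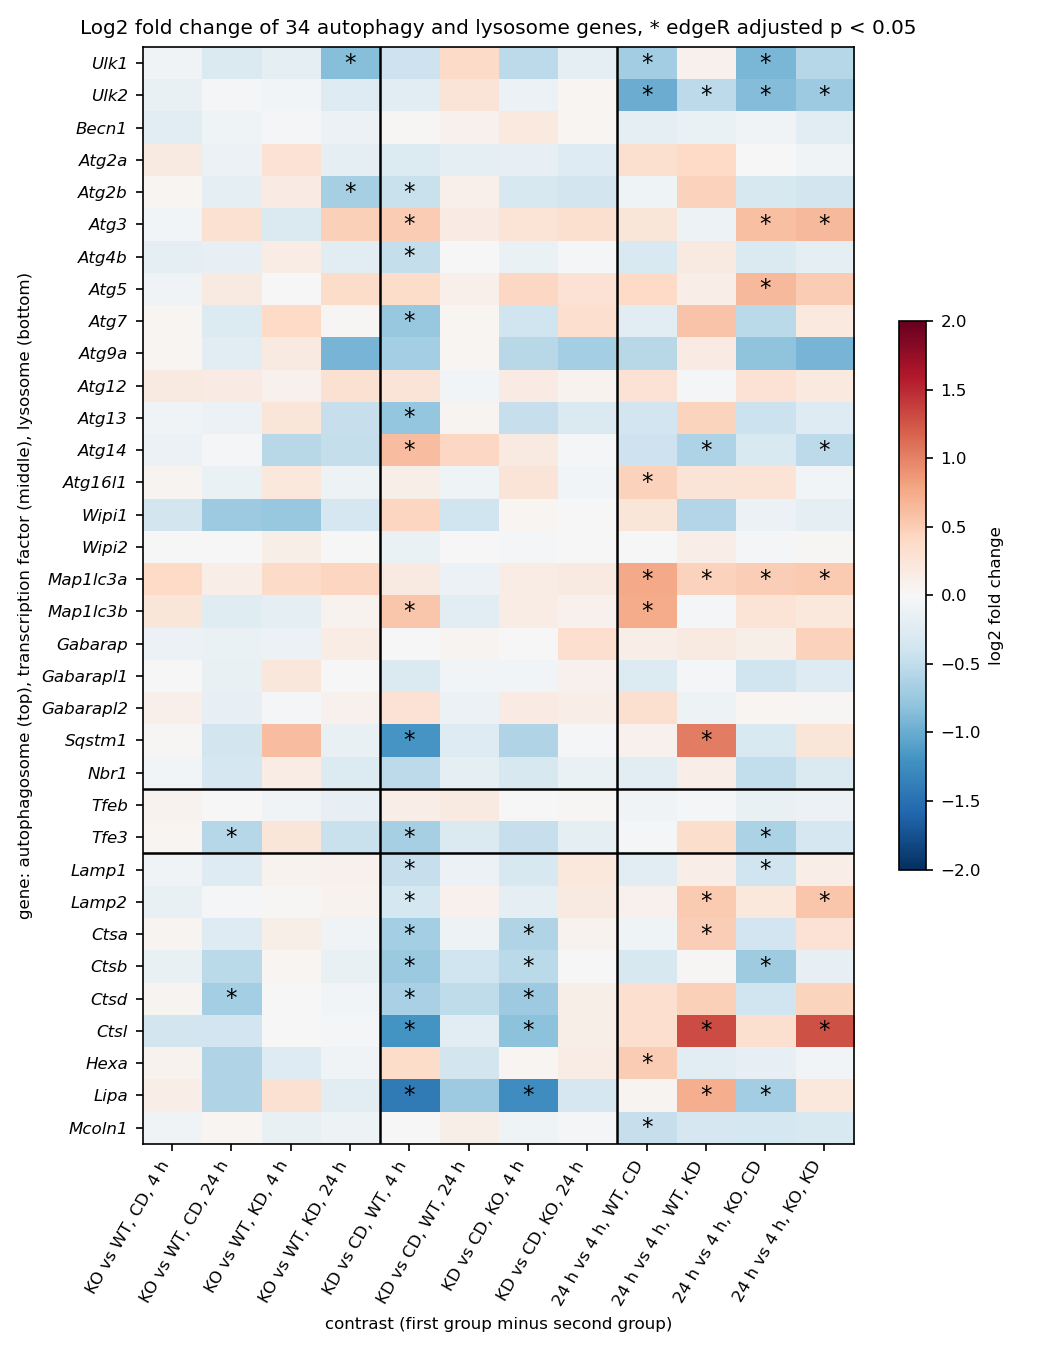
Log2 fold change (colour, first-named group minus second) of the 34 genes in the 12 pairwise comparisons, with a star where the edgeR adjusted p was under 0.05. Ketogenic feeding at 4 h gives a block of lower lysosome genes in both genotypes, and the fasting columns show higher Map1lc3a and lower Ulk2 in all 4.

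Most of the lysosome genes were lower on the ketogenic diet in WT livers fasted 4 h, and autophagosome genes changed in both directions. Of the 9 lysosome genes, 7 were lower on KD and 0 higher, with a median log2 fold change of -0.65. Among the 23 autophagosome genes 3 were higher and 5 lower, with a median of -0.13. Over all genes tested the median was 0.03, 10.8% were higher and 16.5% lower. Those shares are high, so 5 lower and 3 higher of 23 lie near the background, while 7 lower of 9 lie well above it.

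Lipa, the acid lipase (ENSMUSG00000024781, chromosome 19, 34492318 to 34527474, minus strand, GRCm38), was at 88.7, 101, 100.4 and 108 CPM in WT KD 4 h livers, against 283, 310.2, 219 and 244 CPM in WT CD 4 h livers. Every liver on KD lay below every liver on CD. The log2 fold change was -1.41 ± 0.21 (SE), edgeR adjusted p = 2.29e-05. Ctsl, the cysteine protease cathepsin L (ENSMUSG00000021477, chromosome 13, 64363214 to 64370306, minus strand), was at 249, 274, 224 and 374 CPM in WT KD 4 h livers, against 704, 635, 618 and 613 CPM in WT CD 4 h livers. The groups did not overlap, and replicate 4 was the highest of the KD livers. Its log2 fold change was -1.20 ± 0.20 (SE), edgeR adjusted p = 5.72e-05. Cathepsin B, Ctsb, had 321, 391, 345 and 418 CPM on KD and 694, 609, 575 and 586 CPM on CD. The aspartic protease Ctsd had 179, 217, 176 and 233 CPM on KD and 340.4, 357, 292 and 276 CPM on CD. Ctsa, the protective protein of lysosomal galactosidase, had 67.5, 80.1, 71.8 and 80.9 CPM on KD and 129, 126, 114 and 111 CPM on CD. For each of these 3 cathepsins, the 4 KD livers lay below all 4 CD livers. Their log2 fold changes, with SE and edgeR adjusted p, were Ctsb (-0.74 ± 0.17, adjusted p = 0.00171), Ctsa (-0.67 ± 0.16, adjusted p = 0.00219) and Ctsd (-0.65 ± 0.17, adjusted p = 0.00484). The membrane proteins Lamp1 (-0.47 ± 0.13, adjusted p = 0.00872) and Lamp2 (-0.35 ± 0.13, adjusted p = 0.0480) were lower by smaller steps. Hexa (0.36, adjusted p = 0.100) and Mcoln1 (-0.01, adjusted p = 0.976) did not pass.

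Among the autophagosome genes, the cargo receptor Sqstm1 (ENSMUSG00000015837, chromosome 11, 50199366 to 50210827, minus strand) fell to 154, 213, 165 and 219 CPM in WT KD 4 h livers, against 452, 454, 379 and 426 CPM in WT CD 4 h livers. The highest KD liver lay far below the lowest CD liver, and the log2 fold change was -1.19 ± 0.22 (SE), edgeR adjusted p = 1.97e-04. Atg13, the adaptor of the starting kinase, was at 29.4, 45.3, 41.3 and 47.7 CPM on KD and 74.0, 70.0, 72.8 and 62.9 CPM on CD, and Atg7, the E1-like enzyme, at 17.8, 28.7, 26.3 and 30.4 CPM on KD and 47.9, 42.2, 39.6 and 46.0 CPM on CD. Replicate 1 of the KD group was the lowest for both genes, and neither gene's groups overlapped. Lower with smaller steps were the Atg8 protease Atg4b and the lipid-transfer protein Atg2b. The log2 fold changes were Atg13 (-0.77 ± 0.18, adjusted p = 0.00253), Atg7 (-0.77 ± 0.27, adjusted p = 0.0367), Atg4b (-0.48 ± 0.12, adjusted p = 0.00416) and Atg2b (-0.44 ± 0.17, adjusted p = 0.0479) by edgeR. In the other direction, Atg14 of the lipid kinase complex was at 28.5, 27.7, 42.4 and 32.5 CPM on KD and 19.6, 20.2, 25.0 and 20.9 CPM on CD, with KD replicate 3 the highest of all. Map1lc3b, the LC3 protein most used to follow autophagosomes, was at 166, 171, 153 and 179 CPM on KD and 112, 118, 107 and 117 CPM on CD. The E2-like enzyme Atg3 had 111, 99.4, 92.1 and 112 CPM on KD and 75.2, 75.5, 71.1 and 69.9 CPM on CD. None of the 3 genes had overlapping groups, and the fold changes by edgeR were Atg14 (0.61 ± 0.17, adjusted p = 0.00799), Map1lc3b (0.56 ± 0.14, adjusted p = 0.00487) and Atg3 (0.51 ± 0.18, adjusted p = 0.0347). The factor Tfe3 was lower as well (-0.66 ± 0.15 (SE), edgeR adjusted p = 0.00202), and Tfeb did not pass (0.14, adjusted p = 0.624).

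Several calls of this comparison were lost in most of the 8 fits that each left out 1 of its libraries. Lamp2 was lost in 7, and Atg2b, Atg3 and Atg7 in 6 each. Calls lost when 1 library was left out, with the range of log2 fold changes over the fits, were Atg2b without replicates 2, 3 or 4 of WT CD 4 h, or else replicates 1, 2 or 3 of WT KD 4 h (-0.58 to -0.31), then Atg3 without replicates 1, 2, 3 or 4 of WT CD 4 h, or else replicates 1 or 4 of WT KD 4 h (0.47 to 0.59), then Atg7 without replicates 1, 2 or 4 of WT CD 4 h, or else replicates 1, 2 or 3 of WT KD 4 h (-0.85 to -0.61) and then Lamp2 without replicates 1, 2, 3 or 4 of WT CD 4 h, or else replicates 1, 2 or 3 of WT KD 4 h (-0.40 to -0.26). Hepatocyte markers moved in the same comparison: 4 of 6 were lower on KD, with log2 fold changes of -1.27 for Cps1, -1.02 for Alb, -0.97 for Apob and -0.75 for Ttr. The 6 markers summed to 30661 to 52758 CPM in WT KD 4 h livers and 67209.7 to 83294 CPM in WT CD 4 h livers. No macrophage marker of 12 passed (median log2 fold change 0.43). The part of either in the result was not tested.

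**Figure D3:**
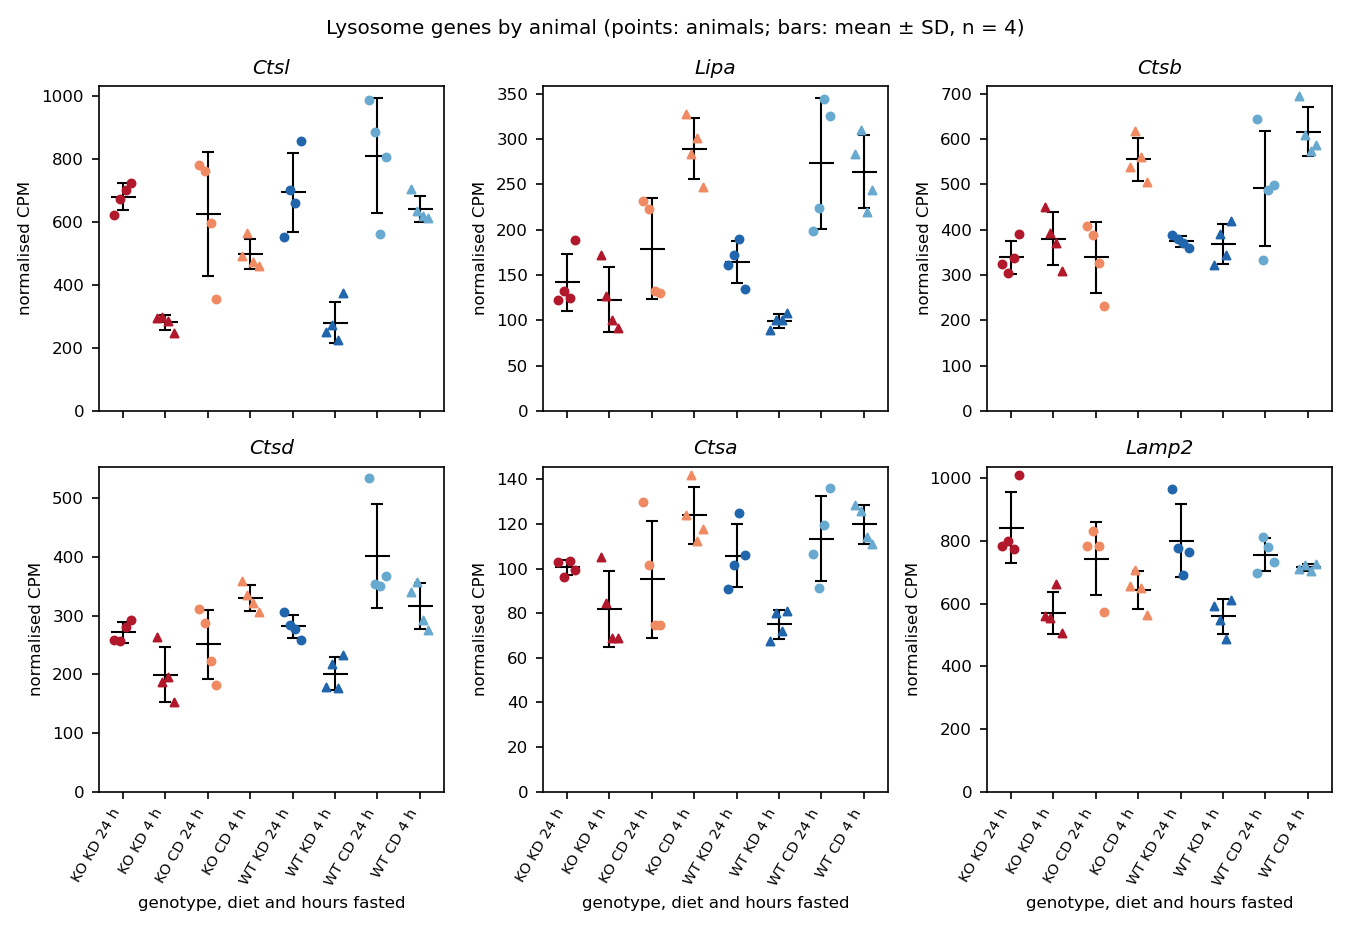
Normalised CPM of 6 lysosome genes in each liver (points, circles at 24 h and triangles at 4 h), by genotype, diet and hours fasted, with mean ± SD of 4 animals. The KD 4 h groups are the lowest for Ctsl and Lipa in both genotypes, for example 224 to 374 CPM of Ctsl in WT KD 4 h livers and 613 to 704 CPM in WT CD 4 h livers.

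In KO livers fasted 4 h the same diet comparison called 5 lysosome genes, all lower on KD, and no autophagosome gene. The 5 were Lipa (-1.24 ± 0.21, adjusted p = 7.85e-04), Ctsl (-0.83 ± 0.19, adjusted p = 0.00918), Ctsd (-0.73 ± 0.17, adjusted p = 0.00777), Ctsa (-0.60 ± 0.16, adjusted p = 0.0182) and Ctsb (-0.55 ± 0.17, adjusted p = 0.0427) by edgeR, that is the lipase and all 4 cathepsins of the list. The background was 4.66% lower and 2.56% higher. The median log2 fold change was -0.55 over the lysosome genes, -0.04 over the autophagosome genes and 0.01 over all genes tested. Lipa was at 172, 127, 101 and 91.3 CPM in KO KD 4 h livers, against 327, 283, 301 and 247 CPM in KO CD 4 h livers. Ctsl was at 294, 297, 287 and 247 CPM in KO KD 4 h livers, against 492, 566, 475 and 460.0 CPM in KO CD 4 h livers. The groups overlapped for none of the 5 genes. Sqstm1 did not pass here: it was at 384, 326, 233 and 216 CPM on KD, with replicates 1 and 2 nearer the CD livers, against 452, 464, 441 and 391 CPM on CD (log2 fold change -0.59, adjusted p = 0.0842). The difference between the genotypes in the effect of diet at 4 h passed for none of the 34 genes, and for 0.104% of all genes. With only KO KD 4 h replicate 4 left out, 1 gene of the 34 was called in place of 5, and without another library up to 10. No share of all genes in those fits is set beside the 1 or the 10. With all 4 libraries that held muscle transcripts left out, that liver among them, 5 genes were called, and of the 5 above Ctsb was the one lost (adjusted p = 0.0646). Of all genes, 880 were called in that fit and 1042 in the main fit. Calls lost without 1 library were Ctsl without replicate 4 of KO KD 4 h (-0.86 to -0.75), then Ctsd without replicate 4 of KO KD 4 h (-0.90 to -0.60), then Ctsa without replicate 2 of KO CD 4 h, or else replicates 3 or 4 of KO KD 4 h (-0.75 to -0.50) and then Ctsb without replicates 1, 2, 3 or 4 of KO CD 4 h, or else replicates 2, 3 or 4 of KO KD 4 h (-0.64 to -0.44). The hepatocyte markers Cps1 (-1.12) and Alb (-0.92) were lower too, the 6 markers summing to 31948 to 56304 CPM in KO KD 4 h livers and 67478 to 76331 CPM in KO CD 4 h livers, and their part was not tested.

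After 24 h of fasting none of the 34 genes passed between the diets in either genotype. In WT livers Lipa was at 161, 172, 190.2 and 135 CPM on KD and 199, 224, 344 and 326 CPM on CD, and the log2 fold change was -0.73 ± 0.21 (SE), edgeR adjusted p = 0.0558. Its KD livers all lay below its CD livers, without passing. Ctsl was at 554, 703, 661 and 859 CPM on KD and 989, 887, 561 and 807 CPM on CD, with much overlap. The background in WT was 1.32% higher and 1.46% lower. In KO livers it was 0.00693% higher and 0% lower, which is 1 gene of 14438. That comparison holds both libraries that lay near the other diet. Without them 52 of all genes were called and still 0 of the 34, and by DESeq2 with them 112 of all genes. At an unadjusted p under 0.05, 5 of the 34 differed in WT and 2 in KO, and DESeq2 called 2 in WT and 0 in KO. Of all genes tested, 2334 in WT and 1766 in KO had an unadjusted p under 0.05, and DESeq2 called 711 and 112.

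With 24 h rather than 4 h of fasting, Map1lc3a was higher and Ulk2 lower in all 4 settings. Of the 23 autophagosome genes 5 passed in WT CD, 4 in WT KD, 5 in KO CD and 4 in KO KD livers, in both directions, with medians of the log2 fold change of 0.00, 0.13, -0.11 and -0.07 in that order. Over all genes 8.89% were higher and 9.61% lower in WT CD, and 6.26% and 4.65% in WT KD. In KO livers the shares were 8.97% and 9.75% on CD, and 4.56% and 4.82% on KD. On CD the 5 of 23 lie near those shares. These comparisons share no library with each other. Map1lc3a, an LC3 protein (ENSMUSG00000027602, chromosome 2, 155276297 to 155278073, plus strand), was at 56.7, 76.6, 57.5 and 60.4 CPM in WT CD 24 h livers, against 37.1, 36.5, 35.2 and 39.0 CPM in WT CD 4 h livers. On KD it was at 57.0, 51.2, 52.7 and 69.6 CPM in WT KD 24 h livers, against 44.1, 43.0, 34.8 and 44.9 CPM in WT KD 4 h livers. In WT animals all 24 h livers lay above all 4 h livers of their diet. KO CD livers had 68.7, 82.0, 61.3 and 63.0 CPM at 24 h and 47.6, 56.0, 51.5 and 40.0 CPM at 4 h. KO KD livers had 80.5, 64.9, 74.1 and 92.3 CPM at 24 h and 48.6, 57.0, 61.0 and 50.0 CPM at 4 h. Here too the groups did not overlap, and KO KD 24 h replicate 4 was the highest liver of all. The log2 fold changes were 0.76 ± 0.13 (SE), edgeR adjusted p = 1.29e-04 in WT CD, 0.47 ± 0.13 (SE), edgeR adjusted p = 0.0205 in WT KD, 0.49 ± 0.13 (SE), edgeR adjusted p = 0.0102 in KO CD and 0.53 ± 0.13 (SE), edgeR adjusted p = 0.0126 in KO KD. The Map1lc3a call in KO KD was lost without the 2 libraries near the other diet.

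Ulk2, a kinase that starts autophagy (ENSMUSG00000004798, chromosome 11, 61775649 to 61855073, minus strand), was at 28.8, 52.3, 74.5 and 68.0 CPM in WT CD 24 h livers, against 103, 107, 122 and 113 CPM in WT CD 4 h livers. In WT KD livers it was at 63.0, 79.0, 66.6 and 58.9 CPM at 24 h and 89.5, 97.6, 96.5 and 99.8 CPM at 4 h. The lowest of these was WT CD 24 h replicate 1. KO CD livers had 57.6, 52.8, 55.7 and 52.7 CPM at 24 h and 106, 111, 96.0 and 86.6 CPM at 4 h. KO KD livers had 52.9, 50.8, 57.5 and 63.1 CPM at 24 h and 85.7, 102, 94.3 and 88.3 CPM at 4 h. In none of the 4 settings did the groups overlap. The log2 fold changes were -1.00 ± 0.17 (SE), edgeR adjusted p = 8.14e-05 in WT CD, -0.52 ± 0.17 (SE), edgeR adjusted p = 0.0409 in WT KD, -0.87 ± 0.17 (SE), edgeR adjusted p = 7.60e-04 in KO CD and -0.72 ± 0.17 (SE), edgeR adjusted p = 0.00696 in KO KD. Its paralogue Ulk1 passed on CD in both genotypes. It was at 63.9, 74.8, 83.7 and 72.0 CPM in WT CD 24 h livers, against 119, 121, 119 and 119 CPM in WT CD 4 h livers (-0.70 ± 0.20 (SE), edgeR adjusted p = 0.0124). In KO CD livers it was at 81.1, 69.8, 36.8 and 54.2 CPM at 24 h, against 125, 117, 94.3 and 119 CPM at 4 h (-0.91 ± 0.20 (SE), edgeR adjusted p = 0.00235). The Ulk1 groups did not overlap in either genotype on CD. On KD its log2 fold change was 0.09 in WT (adjusted p = 0.842) and -0.57 in KO (adjusted p = 0.0641), and the difference between diets did not pass in WT (adjusted p = 0.0601) or in KO (adjusted p = 0.622). The calls of this pair and of Map1lc3a that a single library ended were Ulk1 without replicate 1 of WT CD 24 h (-0.75 to -0.63), then Ulk2 without replicates 1, 2, 3 or 4 of WT KD 4 h, or else replicates 1, 3 or 4 of WT KD 24 h (-0.59 to -0.48), then Map1lc3a without replicate 3 of WT KD 4 h, or else replicate 4 of WT KD 24 h (0.34 to 0.53), then Map1lc3a without replicate 4 of KO CD 4 h (0.41 to 0.56) and then Map1lc3a without replicate 4 of KO KD 24 h (0.43 to 0.60).

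**Figure D4:**
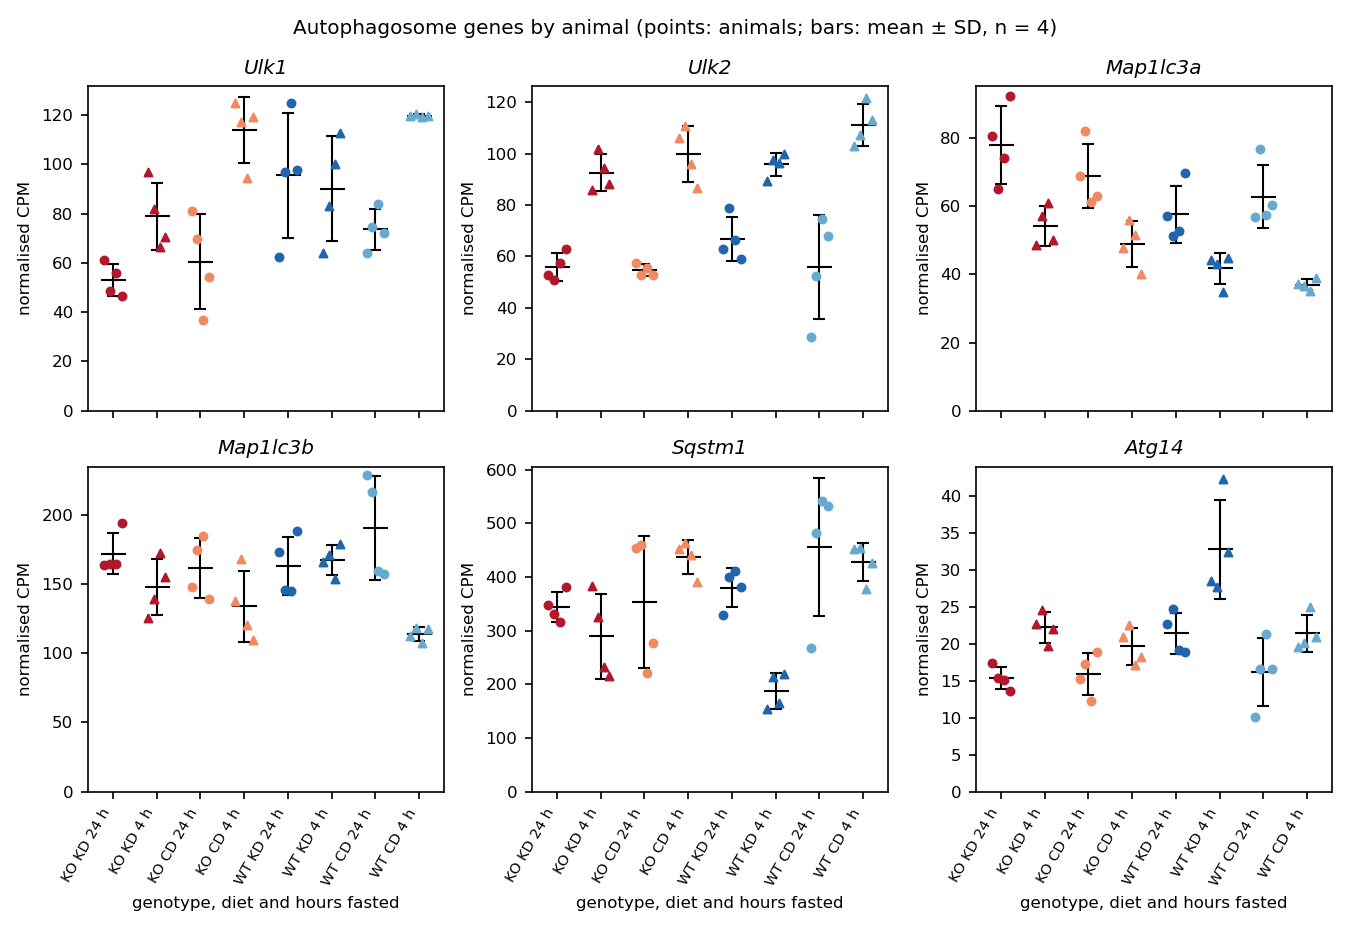
Normalised CPM of 6 autophagosome genes in each liver (points, circles at 24 h and triangles at 4 h), by genotype, diet and hours fasted, with mean ± SD of 4 animals. Ulk2 is lower and Map1lc3a higher at 24 h than at 4 h in each of the 4 pairs of groups, and Sqstm1 is lowest in WT KD 4 h livers (154 to 219 CPM).

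On CD, 2 of 9 lysosome genes passed with fasting in WT livers and 3 in KO livers, and the difference between genotypes passed for 0. In WT CD livers 3 autophagosome genes were higher and 2 lower, and of the lysosome genes 1 was higher and 1 lower, against a background of 8.89% higher and 9.61% lower. Map1lc3b was at 229, 217, 159.7 and 157 CPM in WT CD 24 h livers, against 112, 118, 107 and 117 CPM in WT CD 4 h livers. All 24 h livers lay above all 4 h livers, replicates 1 and 2 most (0.74 ± 0.14 (SE), edgeR adjusted p = 3.85e-04). Atg16l1, which places the conjugation complex on the membrane, was higher (0.46 ± 0.13 (SE), edgeR adjusted p = 0.0140) with overlapping groups. Hexa was higher (0.50 ± 0.17 (SE), edgeR adjusted p = 0.0337), but replicate 1 stood at 84.5 CPM and the other 3 livers at 40.3 to 46.8 CPM in WT CD 24 h, against 32.7 to 43.4 CPM in WT CD 4 h. The channel Mcoln1 was lower (-0.46 ± 0.14 (SE), edgeR adjusted p = 0.0219). Calls lost without 1 library were Atg16l1 without replicate 1 of WT CD 4 h, or else replicate 2 of WT CD 24 h (0.31 to 0.62), then Hexa without replicates 2, 3 or 4 of WT CD 4 h, or else replicate 1 of WT CD 24 h (0.21 to 0.63) and then Mcoln1 without replicate 1 of WT CD 4 h, or else replicate 1 of WT CD 24 h (-0.53 to -0.33). With the muscle-containing libraries left out, WT CD 24 h replicate 1 among them, Hexa and Mcoln1 were not called.

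In KO CD livers 3 lysosome genes were lower at 24 h and 0 higher, the autophagosome genes split 3 higher and 2 lower, and 8.97% of all genes were higher and 9.75% lower. Ctsb was at 407, 389, 327 and 232 CPM in KO CD 24 h livers, against 538, 618, 561 and 506 CPM in KO CD 4 h livers. No 24 h liver reached the lowest 4 h liver, and the log2 fold change was -0.71 ± 0.17 (SE), edgeR adjusted p = 0.00420. Lipa was at 232, 223, 132 and 129.9 CPM at 24 h and 327, 283, 301 and 247 CPM at 4 h (-0.69 ± 0.21 (SE), edgeR adjusted p = 0.0231), with replicates 3 and 4 the lowest at 24 h. Lamp1 was lower (-0.40 ± 0.13 (SE), edgeR adjusted p = 0.0316) with overlapping groups, and so was Tfe3 (-0.63 ± 0.15 (SE), edgeR adjusted p = 0.00547) without overlap. Atg5, the partner of Atg12, was at 60.3, 72.2, 101 and 79.8 CPM at 24 h and 53.8, 47.2, 53.6 and 45.6 CPM at 4 h. Atg3 was at 85.5, 98.1, 137 and 107 CPM at 24 h and 75.0, 73.1, 72.4 and 59.9 CPM at 4 h. Neither gene's groups overlapped, replicate 3 was the highest 24 h liver for both, and the edgeR changes were Atg5 (0.64 ± 0.17, adjusted p = 0.00998) and Atg3 (0.61 ± 0.18, adjusted p = 0.0183). A single library ended the calls of Atg3 without replicate 4 of KO CD 4 h, or else replicate 3 of KO CD 24 h (0.48 to 0.69), then Atg5 without replicate 3 of KO CD 24 h (0.51 to 0.74), then Lamp1 without replicates 1, 2 or 3 of KO CD 4 h, or else replicates 3 or 4 of KO CD 24 h (-0.50 to -0.28) and then Lipa without replicate 1 of KO CD 4 h, or else replicates 3 or 4 of KO CD 24 h (-0.85 to -0.55). Without the libraries holding muscle transcripts, which leaves KO CD 24 h replicates 3 and 4, 18 of the 34 genes were called in place of 9, and Map1lc3a was not among them. KO CD 24 h replicate 4 is the library that lay near the other diet, at 0.765. No share of all genes in that fit is set beside the 18. Lamp1 and Lipa were not called without the 2 libraries near the other diet. Of 12 macrophage markers 5 were lower in this comparison (median log2 fold change -0.60), summing to 189.6 to 399 CPM in KO CD 24 h livers and 402 to 522 CPM in KO CD 4 h livers, and their part was not tested.

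On KD, Ctsl and Lamp2 were higher after 24 h of fasting in both genotypes, and further lysosome genes passed in WT. In WT KD livers 4 of 9 were higher and 0 lower, against 6.26% and 4.65% of all genes, and the median log2 fold change was 0.48 over the lysosome genes, 0.13 over the autophagosome genes and 0.00 over all genes. Ctsl was at 554, 703, 661 and 859 CPM in WT KD 24 h livers, against 249, 274, 224 and 374 CPM in WT KD 4 h livers. Even the lowest 24 h liver exceeded the highest 4 h liver, and the log2 fold change was 1.31 ± 0.20 (SE), edgeR adjusted p = 5.92e-05. In KO KD livers Ctsl was at 624, 673, 701 and 724 CPM at 24 h and 294, 297, 287 and 247 CPM at 4 h. The gap between the KO groups was wider than the spread within either (1.28 ± 0.20 (SE), edgeR adjusted p = 2.16e-04). Lamp2 was higher in WT (0.52 ± 0.13 (SE), edgeR adjusted p = 0.0116) and in KO (0.56 ± 0.13 (SE), edgeR adjusted p = 0.00917). Lipa (0.73 ± 0.21 (SE), edgeR adjusted p = 0.0237) and Ctsa (0.50 ± 0.16 (SE), edgeR adjusted p = 0.0384) passed in WT. In KO their log2 fold changes were 0.21 (adjusted p = 0.553) and 0.30 (adjusted p = 0.224), and the difference between genotypes did not pass (adjusted p = 0.424 and 0.694). In KO KD livers 2 lysosome genes were higher and 0 lower, with a median log2 fold change of 0.21 over the 9, beside 4.56% and 4.82% of all genes.

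Among the autophagosome genes on KD, Sqstm1 was at 328, 399.9, 411 and 381 CPM in WT KD 24 h livers, against 154, 213, 165 and 219 CPM in WT KD 4 h livers. The 24 h livers all lay above the 4 h livers, and the log2 fold change was 1.02 ± 0.22 (SE), edgeR adjusted p = 0.00231. Atg14 was lower at 24 h in both genotypes, at 22.7, 24.7, 19.2 and 18.9 CPM in WT KD 24 h livers against 28.5, 27.7, 42.4 and 32.5 CPM in WT KD 4 h livers. It was at 17.4, 15.4, 15.0 and 13.7 CPM in KO KD 24 h livers, against 22.7, 24.6, 19.7 and 22.0 CPM in KO KD 4 h livers. Its groups did not overlap in either genotype (WT -0.62 ± 0.17 (SE), edgeR adjusted p = 0.0164, and KO -0.53 ± 0.17 (SE), edgeR adjusted p = 0.0461). Atg3 was higher in KO (0.65 ± 0.18 (SE), edgeR adjusted p = 0.0204), at 133, 144, 137 and 118 CPM at 24 h and 60.1, 76.7, 105 and 96.6 CPM at 4 h, without overlap. Calls lost without 1 library were, in WT, Atg14 without replicate 3 of WT KD 4 h, or else replicates 3 or 4 of WT KD 24 h (-0.68 to -0.46), then Lamp2 without replicate 1 of WT KD 24 h (0.40 to 0.58), then Ctsa without replicates 1 or 3 of WT KD 4 h, or else replicates 3 or 4 of WT KD 24 h (0.41 to 0.55) and then Lipa without replicates 1 or 3 of WT KD 4 h, or else replicate 3 of WT KD 24 h (0.65 to 0.79). In KO they were Atg3 without replicates 1 or 2 of KO KD 4 h, or else replicate 2 of KO KD 24 h (0.54 to 0.78) and then Atg14 without replicates 1, 2 or 4 of KO KD 4 h, or else replicates 1, 2, 3 or 4 of KO KD 24 h (-0.59 to -0.46). The number of the 34 genes called in WT KD was 8, and it was 3 without WT KD 4 h replicate 3, with no share of all genes in that fit set beside it. In KO KD livers Atg14 was not called without the 2 libraries near the other diet. Hepatocyte markers were higher in the same comparisons, 3 of 6 in WT (51286 to 75353 CPM summed in WT KD 24 h livers, 30661 to 52758 CPM in WT KD 4 h livers) and 2 of 6 in KO (53064 to 62539.9 CPM in KO KD 24 h livers, 31948 to 56304 CPM in KO KD 4 h livers). Macrophage markers were lower in KO KD livers at 24 h (3 of 12 passed), and the part of either was not tested.

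Between genotypes few of the 34 genes passed. At 4 h none did on CD, against 1.38% of all genes higher and 0.45% lower, and none on KD, against 1.84% and 0.977%. At an unadjusted p under 0.05 those 4 h comparisons held 2 of the 34 on CD and 4 on KD, and DESeq2 called 0 and 2. Of all 14438 genes, 1337 on CD and 2176 on KD had an unadjusted p under 0.05, and DESeq2 called 383 and 662. On CD at 24 h, Ctsd was at 311, 288, 222 and 182 CPM in KO livers, against 535, 353, 350.1 and 367 CPM in WT livers. All KO livers lay below all WT livers, and WT replicate 1 stood far above its group (-0.68 ± 0.17 (SE), edgeR adjusted p = 0.0279). Tfe3 was at 22.6, 19.0, 14.4 and 16.6 CPM in KO livers, against 17.2, 31.6, 28.1 and 30.7 CPM in WT livers, where replicate 1 was low and lay within the KO range (-0.56 ± 0.15 (SE), edgeR adjusted p = 0.0476). The background was 0.942% higher and 1.13% lower. A single library ended the calls of Ctsd without replicates 3 or 4 of KO CD 24 h, or else replicate 1 of WT CD 24 h (-0.80 to -0.50) and then Tfe3 without replicates 2, 3 or 4 of KO CD 24 h, or else replicates 2, 3 or 4 of WT CD 24 h (-0.72 to -0.46). Of the 34 genes 13 were called without the libraries holding muscle transcripts, 5 by DESeq2, and 0 without the 2 libraries near the other diet or with only these 8 libraries. DESeq2 called 573 of all genes. Without the muscle libraries only replicates 3 and 4 of KO CD 24 h remain, and replicate 4 lay near the other diet. The 13 rest on these 2 KO livers, and no share of all genes in that fit is set beside them. Macrophage markers were lower in the same comparison, 8 of 12 (median log2 fold change -1.28). They summed to 189.6 to 399 CPM in KO livers and 343 to 1285 CPM in WT livers, where replicate 1, the highest for Ctsd and Hexa, was also the highest, and their part was not tested.

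On KD at 24 h, Ulk1 was at 61.2, 48.7, 55.7 and 46.7 CPM in KO livers, against 62.5, 97.0, 125 and 97.6 CPM in WT livers. The highest KO liver lay just under the lowest WT liver, replicate 1 (-0.85 ± 0.20 (SE), edgeR adjusted p = 0.0135). Atg2b was at 28.0, 24.5, 26.6 and 27.8 CPM in KO livers, against 33.9, 41.0, 50.7 and 43.9 CPM in WT livers, again without overlap (-0.67 ± 0.17 (SE), edgeR adjusted p = 0.0226). These 2 lower genes of 23 stand beside 2% of all genes higher and 1.95% lower. Single libraries ended both calls: Ulk1 without replicate 2 of KO KD 24 h, or else replicate 3 of WT KD 24 h (-0.99 to -0.69) and then Atg2b without replicates 1, 2 or 3 of KO KD 24 h, or else replicates 2, 3 or 4 of WT KD 24 h (-0.75 to -0.57). Ulk1 also failed once the 2 libraries near the other diet were dropped, and 6 genes were called without the libraries holding muscle transcripts, none of those libraries being from these groups. No share of all genes in that fit is set beside the 6, so they are not read as a further effect of genotype. Macrophage markers were lower for 6 of 12 (235 to 385 CPM summed in KO livers, 443 to 777 CPM in WT livers), and their part was not tested.

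The effect of fasting differed between the diets in WT livers for 5 of the 34 genes, among 12.9% of all genes. The 5 of 34 lie near that share. The value is the log2 change with fasting on KD minus that on CD. It was positive for Ctsl (0.97 ± 0.27 (SE), edgeR adjusted p = 0.0182), Sqstm1 (0.92 ± 0.30 (SE), edgeR adjusted p = 0.0414) and Atg13 (0.82 ± 0.26 (SE), edgeR adjusted p = 0.0322). For Ctsl the change with fasting was 1.31 on KD and 0.34 on CD, and for Sqstm1 1.02 on KD and 0.09 on CD. Negative values were those of Map1lc3b (-0.78 ± 0.20 (SE), edgeR adjusted p = 0.00973) and Hexa (-0.73 ± 0.23 (SE), edgeR adjusted p = 0.0369). For Map1lc3b it was -0.04 on KD and 0.74 on CD. In KO livers the same difference passed for none of the 34 genes, among 1.39% of all genes, with 0.95 for Ctsl (adjusted p = 0.0721). The effect of genotype did not differ by diet at 24 h (0% of all genes) or by fasting on CD (0.61%) or KD (0.256%) for any of the 34. Of the 5, Map1lc3b kept its call whichever library was left out. Hexa lost its call without the libraries holding muscle transcripts. A single library ended the calls of Ctsl without replicate 3 of WT KD 4 h, or else replicate 4 of WT KD 24 h (0.80 to 1.15) and then Atg13 without replicates 1 or 3 of WT CD 4 h, or else replicate 1 of WT CD 24 h, or else replicates 1 or 3 of WT KD 4 h, or else replicates 2 or 3 of WT KD 24 h (0.66 to 0.91). The same held for Hexa without replicates 2 or 4 of WT CD 4 h, or else replicate 1 of WT CD 24 h, or else replicates 2 or 4 of WT KD 4 h, or else replicates 2, 3 or 4 of WT KD 24 h (-0.88 to -0.43) and then Sqstm1 without replicates 1, 2 or 4 of WT CD 4 h, or else replicates 1 or 2 of WT CD 24 h, or else replicates 1 or 3 of WT KD 4 h, or else replicates 2, 3 or 4 of WT KD 24 h (0.74 to 1.01).

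Averaged over each list, the diets did not overlap at 4 h for the lysosome genes and overlapped for the autophagosome genes. The mean log2(CPM + 0.5) of the 9 lysosome genes was 7.18 to 7.51 in WT KD 4 h livers and 7.81 to 8.00 in WT CD 4 h livers, and 7.08 to 7.59 in KO KD 4 h livers and 7.70 to 7.94 in KO CD 4 h livers. Neither pair overlapped. For the 23 autophagosome genes it was 5.76 to 6.08 in WT KD 4 h livers and 6.06 to 6.09 in WT CD 4 h livers, and 5.91 to 6.05 in KO KD 4 h livers and 5.94 to 6.19 in KO CD 4 h livers. These pairs overlapped. At 24 h the lysosome mean was 7.55 to 7.73 in KO KD livers, 7.20 to 7.80 in KO CD livers, 7.63 to 7.72 in WT KD livers and 7.75 to 8.01 in WT CD livers. There the diets did not overlap in WT livers, by a narrow gap, and overlapped in KO livers, where the CD livers spread the most. Without the 2 libraries near the other diet, it was 7.55 to 7.62 in KO KD and 7.39 to 7.80 in KO CD livers, still overlapping. These means are a description and carry no test.

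**Figure D5:**
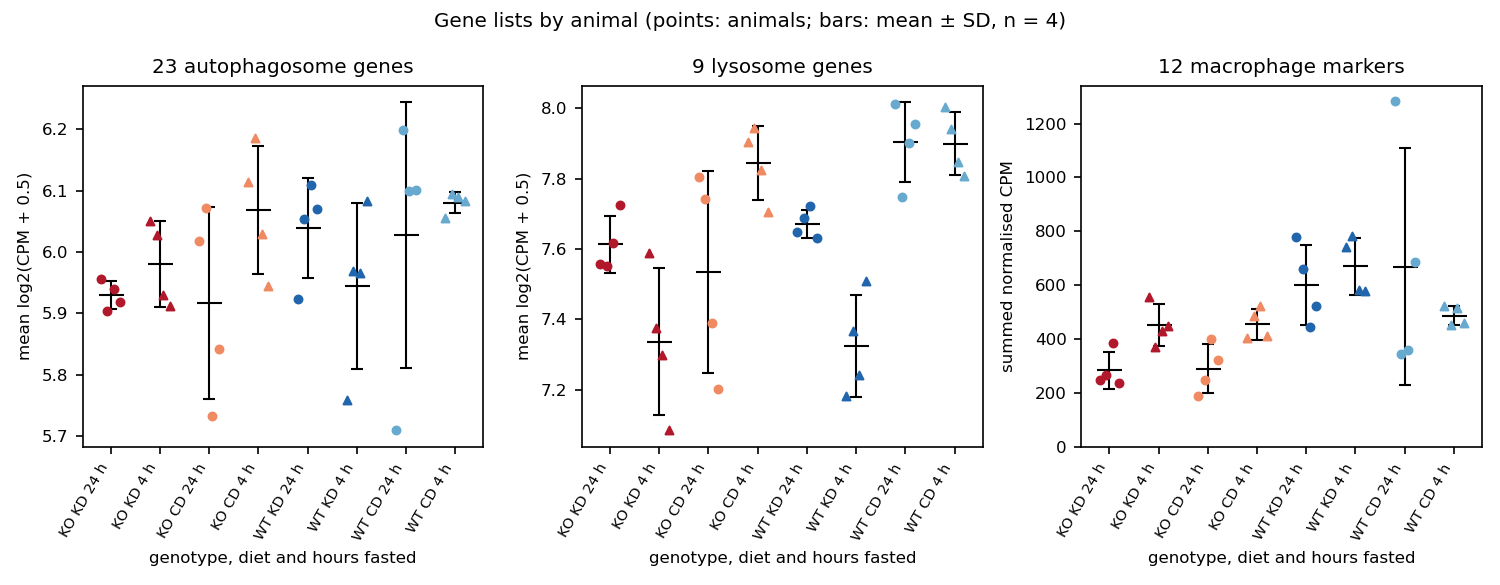
Mean log2(CPM + 0.5) of the autophagosome genes (left) and lysosome genes (middle), and summed CPM of 12 macrophage markers (right), in each liver by genotype, diet and hours fasted, with mean ± SD of 4 animals. The lysosome mean is lowest in the KD 4 h groups, and the macrophage sum is highest in 1 WT CD 24 h liver, at 1285 CPM.

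Of the Atg8 family, Map1lc3a and Map1lc3b passed in comparisons and the GABARAP members in none. Gabarap was at 245, 248, 243 and 286 CPM in KO KD 24 h livers, 143, 178, 238 and 187 CPM in KO KD 4 h livers, 181, 229, 220.4 and 175 CPM in KO CD 24 h livers and 197, 215, 179.8 and 154 CPM in KO CD 4 h livers. WT livers had 308, 208, 166 and 236 CPM on KD at 24 h, 214, 209, 174 and 211 CPM on KD at 4 h, 288, 236, 192 and 169.9 CPM on CD at 24 h and 214, 204, 189 and 203 CPM on CD at 4 h. The KO KD 24 h livers overlapped the WT 24 h groups of both diets and lay above the other 5 groups, without passing against KO KD 4 h (0.45, adjusted p = 0.0875) or KO CD 24 h livers (0.34, adjusted p = 0.417). The highest single liver was WT KD 24 h replicate 1. Gabarapl1 had group means between 319 ± 45.1 CPM in KO CD 24 h livers and 426 ± 26.4 CPM in WT CD 4 h livers (SD, n = 4 each), and 1 WT CD 24 h liver stood at 165.6 CPM. Gabarapl2 had group means between 51.0 ± 7.02 CPM in WT CD 24 h livers and 40.8 ± 1.17 CPM in WT CD 4 h livers. The ratios of highest to lowest group mean were small: 1.34 for Gabarapl1, 1.25 for Gabarapl2 and 1.37 for Gabarap. Single livers spread more, from 165.6 to 536 CPM for Gabarapl1.

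Of the transcription factors, Tfeb was low and level. It was at 8.28, 9.38, 9.82 and 6.58 CPM in KO KD 24 h livers, 11.1, 9.35, 8.08 and 8.32 CPM in KO KD 4 h livers, 10.3, 6.18, 7.31 and 9.58 CPM in KO CD 24 h livers and 8.88, 9.06, 8.79 and 10.3 CPM in KO CD 4 h livers. In WT livers it was at 6.53, 9.50, 11.3 and 10.9 CPM on KD at 24 h, 6.57, 11.4, 10.1 and 10.7 CPM on KD at 4 h, 6.66, 7.67, 11.8 and 7.63 CPM on CD at 24 h and 9.06, 9.18, 8.56 and 8.53 CPM on CD at 4 h. All 8 groups overlapped. Tfe3 had 15.9, 15.6, 15.1 and 17.7 CPM in KO KD 24 h livers, 23.5, 20.3, 15.7 and 21.9 CPM in KO KD 4 h livers and 28.6, 29.1, 25.5 and 29.0 CPM in KO CD 4 h livers. In WT livers Tfe3 had 19.2, 24.7, 23.1 and 20.8 CPM on KD at 24 h, 15.4, 19.5, 17.0 and 16.6 CPM on KD at 4 h and 29.5, 28.3, 23.9 and 26.9 CPM on CD at 4 h. The CD 4 h livers of both genotypes were high, as were 3 of the 4 WT CD 24 h livers given above.

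The other genes of the pathway were counted from lists by role. They are to be read beside the 16.5% lower and 10.8% higher of all genes for diet at 4 h in WT livers, and 4.66% and 2.56% in KO livers. In WT livers 19 of 39 other hydrolases were lower on KD and 1 higher, led by Gaa (-1.40, adjusted p = 0.00685), the acid glucosidase that digests glycogen, Gm2a (-1.23, adjusted p = 1.64e-05), the activator that presents gangliosides to Hexa, and Arsb (-1.21, adjusted p = 0.00887), an arylsulfatase. The higher gene was Ctso (0.39, adjusted p = 0.0159). Of 18 subunits of the proton pump that acidifies the lysosome, 5 were lower, such as Atp6v0a1 (-0.98, adjusted p = 0.00487), and 1 higher, Atp6v0b (0.65, adjusted p = 0.0474). Of 20 other lysosomal membrane genes 3 were lower and 1 higher, a share no larger than the background. The remaining autophagy machinery split into 4 higher and 9 lower of 25, with Wdr45b (1.15, adjusted p = 4.70e-05) at the top and Atg16l2 (-1.45, adjusted p = 8.43e-04) at the bottom. In either direction 52% of that list passed, above the 27.3% of all genes and close to the 51.3% of the other hydrolases. Calls above the background were thus not particular to the lysosome lists. Among 13 selective receptors the mitophagy receptor Bnip3 (1.70, adjusted p = 6.53e-06) was the highest. In KO livers 7 of 39 hydrolases were lower and 0 higher, led by Scpep1 (-1.00, adjusted p = 0.00130), and Bnip3 was higher again (0.89). All p values here are edgeR's, over all genes tested.

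With fasting on CD, Bnip3 was higher in WT (1.78) and KO livers (1.50), as was its relative Bnip3l (0.66 and 0.65), both mitophagy receptors. In WT CD livers Retreg1, the receptor for endoplasmic reticulum (1.29), and the tetraspanin Cd63 (2.33) also were higher, and 7 of 39 other hydrolases were lower with 0 higher. In KO CD livers 10 were lower and 1 higher. The background on CD was 9.61% lower and 8.89% higher in WT, and 9.75% and 8.97% in KO. On KD the hydrolases split into 6 higher and 0 lower in WT, led by Gaa (1.17, adjusted p = 0.0407), and 2 higher and 1 lower in KO, where 6.26% of all genes were higher and 4.65% lower in WT and 4.56% and 4.82% in KO. Of 27 genes of mTORC1 and AMPK control, which gate the Ulk kinases and Tfeb, none was higher with fasting in any of the 4 settings. Lower were 6 in WT CD, 6 in KO CD, 3 in WT KD and 3 in KO KD livers, beside 9.61%, 9.75%, 4.65% and 4.82% of all genes in that order. Among them were the folliculin partner Fnip2 (-1.29 in WT CD, -0.67 in KO CD and -1.03 in WT KD) and the stress protein Sesn3 (-0.89 in WT CD, -1.22 in KO CD and -1.14 in KO KD). Between genotypes at 24 h, Ctss, a cathepsin abundant in macrophages, was lower in KO livers on CD (-1.14) and on KD (-0.98), beside the macrophage markers given above.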

How the data were processed

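RNA was sequenced from 32 livers, 4 animals in each of 8 groups, from paired-end polyA libraries (a TruSeq kit, per the labels' protocols). Per the submitters' processing notes, the authors used TopHat2 2.0.12, Bowtie2 2.2.3 and HTSeq 0.6.1 on mouse build GRCm38 (mm10). Neither the annotation release nor the strand setting is given in the sources used here. The deposited table holds raw read counts per gene, which were used. It also holds FPKM values by the authors, which were not used, and a gene length per the file headers, which served to scale levels between genes. Replicate numbers follow accession order and pair no samples. The numbers in sample titles form separate ranges by genotype and hours fasted, so genotype and fasting cannot be told apart from any batch behind them.

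Counts were tested with edgeR 4.0.16 in R 4.3.3 (quasi-likelihood, TMM, filterByExpr), with 1 mean per group over all 32 libraries, 24 residual degrees of freedom and a common biological coefficient of variation of 0.235. Tests were two-sided, in 12 pairwise contrasts and 6 interactions, each adjusted over 14438 genes, and a gene passed at an adjusted p under 0.05. The SE is the size of the log2 fold change over the root of its F statistic. Replicate pairs (48) had correlations of log2 counts from 0.9708 to 0.9907, and none held identical values. Floors and counting errors cover counting only. The procedure was tested on simulated data.

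Alternatives were DESeq2 1.42.0, RLE size factors, no filter, the contrast's groups alone, each library left out, and 2 sets of libraries left out. Promoter sequences and names come from RefSeq (GRCm38.p6), read with Python 3.11.15. The scale of diet in the opening left out the 34 genes themselves. The genes named are those that passed, up to 8 per direction and contrast, with values by animal for up to 8 autophagosome and 5 lysosome genes with the most calls, the Atg8 family, Tfeb and Tfe3, any gene passing in an interaction, up to 3 per direction of each other list, and markers that moved with a result. The members and lists were chosen with earlier results of these data known.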

Additional observations from a re-analysis of the deposited data

Results flagged for a closer look

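A liver was looked at again when its gap to the nearest of its group was large for 4 values (Dixon's test at 95%). Of 272 gene and group sets and 16 list means, 16 were marked, and chance marks about 1 in 20. In KO KD 24 h, replicate 4 was the high liver for 6 genes: Map1lc3b (195 CPM), Gabarap (286 CPM), Gabarapl2 (58.2 CPM), Lamp1 (659.7 CPM), Lamp2 (1010.7 CPM) and Lipa (189 CPM). That library is the one whose diet position lay at 0.254. WT CD 24 h replicate 1 was high for Ctsd (535 CPM) and Hexa (84.5 CPM) and low for Atg13 (34.1 CPM). It held the highest macrophage sum and muscle transcripts.

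The other marked livers were Ulk1 in WT CD 4 h replicate 2 (120.5 CPM, in a group that spans hardly more than 1 CPM), Atg3 in KO CD 4 h replicate 4 (59.9 CPM), Wipi1 in WT CD 4 h replicate 3 (25.7 CPM), Gabarap in WT KD 4 h replicate 3 (174 CPM), Gabarapl1 in WT KD 24 h replicate 1 (385 CPM), Gabarapl2 in WT KD 4 h replicate 1 (58.7 CPM) and Tfe3 in KO CD 4 h replicate 3 (25.5 CPM).

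In WT livers the change with fasting differed between the diets, by edgeR's interaction term (KD minus CD, log2), for Ctsl (0.97), Sqstm1 (0.92), Atg13 (0.82), Map1lc3b (-0.78) and Hexa (-0.73). Their share of the listed genes lies near the 12.9% of all genes that passed there. Only Map1lc3b kept its call whichever library was left out.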

How the results depend on the processing

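No called change reversed under any alternative run. Of 60 called changes, DESeq2 kept 59, RLE size factors 57, the fit without muscle libraries 55, that without the 2 libraries near the other diet 52, no filter 49, and the contrast's groups alone 45. Leaving out 1 library kept 387 of 520. The mean log2 CPM of each list moved with RLE by less than the spread between replicates in most groups. No paired analysis was possible because replicate numbers follow accession order.

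Numbers of the 34 genes called that moved by over 1.5 times were as follows. For KO against WT on CD at 24 h (2 genes) they were 13 without the muscle libraries, 5 by DESeq2, 1 without a filter, and 0 without the 2 libraries near the other diet or with its groups alone. With the groups alone, KO against WT on CD at 4 h gave 2 (main 0), fasting on CD in WT 4 (main 7), fasting on KD in WT 5 (main 8) and the diet by fast difference in WT 3 (main 5). Without a filter the last 2 were 5 and 3. Without the muscle libraries they were 2 for genotype on KD at 4 h, 6 for genotype on KD at 24 h, 2 for diet at 24 h in WT, 18 for fasting on CD in KO, 1 for genotype by diet at 24 h, 4 for genotype by fast on CD, 2 for genotype by fast on KD and 6 for diet by fast in KO. Without the 2 libraries near the other diet they were 1 for genotype on KD at 24 h and 1 for diet at 24 h in WT. DESeq2 gave 2 for genotype on KD at 4 h, 2 for diet at 24 h in WT, 10 for fasting on KD in KO and 2 for diet by fast in KO. Of all genes it called 662, 711, 1837 and 451 in that order. No number of all genes is set beside the other counts of this paragraph. Whether the 34 genes shifted more than all genes cannot be read from those counts. The fits without the muscle libraries keep only replicates 3 and 4 of KO CD 24 h, and replicate 4 lay near the other diet. The causes were not tested.

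Leaving out 1 library gave ranges of 0 to 3 (genotype, CD 24 h), 0 to 1 (KD 4 h), 0 to 4 (KD 24 h), 12 to 15 (diet, WT 4 h), 0 to 1 (WT 24 h), 1 to 10 (KO 4 h), 4 to 9 (fasting, WT CD), 3 to 9 (WT KD), 5 to 17 (KO CD) and 4 to 11 (KO KD). The interactions ranged from 0 to 1 (genotype by fast, either diet), 2 to 7 (diet by fast, WT) and 0 to 3 (diet by fast, KO). These ranges too stand without the number of all genes called in the same fits.

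Depth limits the lowest genes most: Tfeb, at under 12 CPM in every liver, has the largest counting error. With 4 animals a group, a change that did not pass is not shown to be absent.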
